A study of Mus musculus with 8 samples.

Results

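The baseline transcriptome of primary mouse embryonic fibroblasts held at atmospheric oxygen was described from the 4 normoxia arrays of a series of 8, chosen by the sample labels alone. The other 4 arrays of the series came from fibroblasts kept in low oxygen and entered no value given here. The cells were primary fibroblasts from a commercial supplier, grown on 100 mm dishes in serum-containing, high-glucose medium at 37 °C with 5% CO2, and they stayed at atmospheric oxygen for a further 24 h as the untreated arm of the study. No transgene, deletion or drug was named for them, and the mouse strain, the sex and number of the embryos and the passage were not given in the sources used here. From each sample 50 ng of RNA were amplified and biotin-labelled for the Affymetrix exon array of the mouse, whose probe sets are mostly directed at single exons.

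Embryonic fibroblasts are the connective tissue cells of the embryo. In culture they spread on the plastic, anchor through stress fibres of actin and myosin, and secrete the fibrous proteins that make up the extracellular matrix, among them collagens, fibronectin and matricellular proteins. Serum, which carries growth factors and lysophospholipids, keeps them dividing and drives contractile and growth-related genes. Because embryos are dissociated as a whole or nearly so, such cultures can also hold cells of other lineages, so that marker genes of those lineages were examined beside the fibroblast markers.

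Each probe set is called a row below. The table held 641130 rows, of which 307991 (48%) named 1 gene in the platform annotation. The level of a gene on an array was the mean log2 intensity over its rows, and 21656 genes had such a level, from a median of 11 rows each. A row covers a short stretch of transcript, so the level does not grow with transcript length, but rows differ in how strongly they respond to the same RNA. The order of genes given here is therefore an order of signal. Probe sets to near-identical copies (actins, ribosomal protein genes and their pseudogenes, the X and Y copies of 1 gene) may share signal, and values within such families are uncertain to that extent. The study's methods call the replicates biological and give more of them per condition than the labels, which were followed; separate embryos were not named, so the SD over 4 arrays given with each level may be partly technical.

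Fibroblasts were assumed not to use the genes of odorant and pheromone receptors, and these 1263 genes served as the scale of unspecific signal. They are read by 3515 rows in all, fewer per gene than the median of 11 rows, and this difference was not corrected for. Their median level was 1.15, and 95% of them lay below 3.06, 2.53, 2.80 and 2.98 on replicates 1, 2, 3 and 4. A gene that exceeded this value on every one of the 4 arrays is called above the receptor level. Of the 21656 genes, 9194 (42.5%) were above it, and together they held 87.7% of the summed linear level. The median gene lay at 2.79, inside the upper range of the receptor genes. A further class, the brightest 5% of genes (1083 genes), began at a level of 5.97 and held 49.1% of the summed linear level, and the brightest 1% (217 genes) held 28.7% of it. Among protein-coding genes 46.4% were above the receptor level, against 9.44% of 1906 long non-coding RNA genes and 37.2% of 600 pseudogenes. Of the receptor genes themselves 34 were above the level, the brightest being Olfr740 at 6.08 ± 0.51 (SD, n = 4), read by 1 row.

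**Figure D1:**
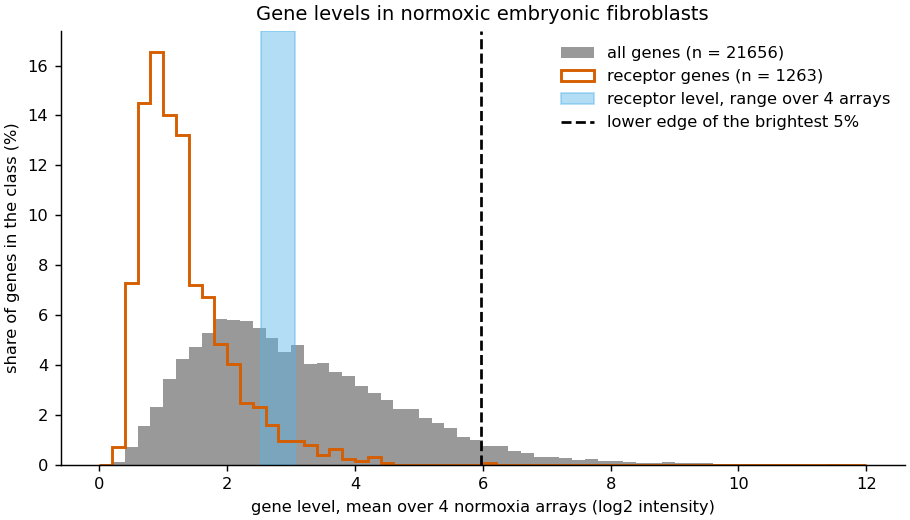
Distribution of gene levels (horizontal axis, mean log2 intensity over the 4 normoxia arrays) as the share of all 21656 genes (grey) and of the 1263 receptor genes (orange line) in each bin (vertical axis, percent). The blue band spans the receptor level of the 4 arrays, from 2.53 to 3.06, and the dashed line marks 5.97, where the brightest 5% of genes begin; nearly all receptor genes lie to the left of the band's right edge.

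Promoters of genes above and not above this level differed in base composition. RefSeq (GRCm38.p6) gave 1 promoter window for 14032 of the genes, and the 250 bases before the start were read. The median GC content was 60.8% in 5151 genes above the level but outside the brightest 5%, and 51.2% in 8201 genes not above it. The median number of CG dinucleotides was 17 and 5 in those classes, 16 in the brightest 1% (122 windows), and 1 in 1061 receptor genes. The receptor genes, with a median GC content of 34.4%, set the level, so nearly all of them were not above it by construction. The contrast between the classes is partly fixed by this, and the class without them was not examined. The letters TATAAA, searched on the strand of the gene between bases -50 and -11 from the start, occurred in 3.18% of all windows. They were present in 8 of 122 windows of the brightest 1% (6.56%), in 2.33% of the next 558, in 1.51% of the other genes above the level and in 4.23% of genes not above it. The 8 genes were S100a4, Vim, Ppia, Ccn1, Lbh, Sod1, Prdx1 and Anxa1. A C followed by at least 4 pyrimidines within bases -2 to +6 of the start, the pattern of the 5′ terminal oligopyrimidine tract that places messenger RNAs under growth control of translation, was found in 13 of 47 windows of ribosomal protein genes (27.7%) and in 7.05% of all windows. These are counts of letters, with no statement about binding of a factor.

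Windows of 4 genes are shown because they hold the contrast: a ribosomal protein gene of the brightest class with many CG dinucleotides and no TATAAA, 2 fibroblast genes of the brightest class with TATAAA, and the liver gene for albumin, which was not above the receptor level. Each run is the 250 bases before the start, 5′ to 3′ on the strand of the gene, and capitals mark every CG and the TATAAA.
Rpl37a (chr1:72711010-72711259, + strand, GRCm38.p6): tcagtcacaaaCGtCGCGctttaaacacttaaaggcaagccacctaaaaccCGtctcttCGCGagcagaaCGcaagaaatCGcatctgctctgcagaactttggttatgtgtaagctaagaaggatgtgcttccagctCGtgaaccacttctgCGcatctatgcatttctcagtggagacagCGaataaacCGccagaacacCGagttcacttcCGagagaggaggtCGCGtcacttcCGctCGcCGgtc
Vim (chr2:13574061-13574310, + strand, GRCm38.p6): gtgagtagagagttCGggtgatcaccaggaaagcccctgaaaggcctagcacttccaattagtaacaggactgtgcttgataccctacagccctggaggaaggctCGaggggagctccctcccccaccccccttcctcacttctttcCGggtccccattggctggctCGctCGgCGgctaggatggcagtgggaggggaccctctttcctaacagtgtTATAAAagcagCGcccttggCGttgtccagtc
Ccn1 (chr3:145649986-145650235, - strand, GRCm38.p6): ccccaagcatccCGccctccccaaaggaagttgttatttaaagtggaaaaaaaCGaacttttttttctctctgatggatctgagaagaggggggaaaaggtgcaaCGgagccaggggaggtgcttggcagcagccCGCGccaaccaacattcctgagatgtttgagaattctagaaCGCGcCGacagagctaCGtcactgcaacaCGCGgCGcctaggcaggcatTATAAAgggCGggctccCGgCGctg
Alb (chr5:90460620-90460869, + strand, GRCm38.p6): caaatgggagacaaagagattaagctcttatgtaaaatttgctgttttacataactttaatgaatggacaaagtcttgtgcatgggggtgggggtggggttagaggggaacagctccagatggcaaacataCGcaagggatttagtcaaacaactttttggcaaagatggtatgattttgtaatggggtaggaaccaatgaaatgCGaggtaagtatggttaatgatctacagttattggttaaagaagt
Rpl37a held 19 CG dinucleotides, Vim 8, Ccn1 15 and Alb 2, and TATAAA began at base -32 in Vim and at base -25 in Ccn1.

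The top ranks held genes of the mitochondrial genome, the ribosome, the actin cytoskeleton and the extracellular matrix, among others. The top rank of all genes belonged to CYTB, the cytochrome b of the mitochondrial genome, with 11.39, 11.74, 11.52 and 11.50 on replicates 1 to 4, but it is read by 1 row. All 13 protein genes of the mitochondrial genome lay in the brightest 5%, the lowest being ND3 at 6.09 ± 0.38 (SD, n = 4), and 10 of them are read by only 1 or 2 rows. The ranking below was therefore limited to genes with at least 3 rows.

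Among those genes AY036118, a non-coding RNA by its annotation, came first, with 11.10, 11.11, 11.04 and 10.90. Rpl37a, a protein of the large ribosomal subunit, followed with 10.87, 10.86, 10.90 and 10.87, the narrowest spread among the 30 brightest (SD 0.015). The mitochondrial COX3, a subunit of cytochrome c oxidase, had 10.95, 10.88, 10.73 and 10.75. Its values overlap with those of Rpl37a, so that these neighbours in the order could not be separated.

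Thbs1, the matricellular protein thrombospondin-1, was the brightest gene for a secreted protein, with 10.70, 10.80, 10.79 and 10.66 over 27 rows. Fibronectin (Fn1), the adhesion protein of the fibroblast matrix, had 10.52, 10.59, 10.59 and 10.46 over 55 rows. Smooth muscle actin (Acta2), the actin of contractile fibroblasts, lay at 10.66, 10.64, 10.53 and 10.53, beside the cytoplasmic Actb at 10.64, 10.78, 10.59 and 10.55. The 4 genes lay close together, and their values overlapped between neighbours in the order.

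Crabp1, a cytosolic binding protein for retinoic acid, stood among them with 10.46, 10.48, 10.56 and 10.61 over 7 rows (10.53 ± 0.070, SD, n = 4). The calcium-binding S100a11 (10.59 ± 0.079) and S100a4 (9.63 ± 0.16), the tetraspanin Cd81 (9.91 ± 0.073), the galectin Lgals1 (9.91 ± 0.026), the small proteoglycan biglycan (Bgn, 9.67 ± 0.085), the myosin light chain Myl6 (9.65 ± 0.076) and the nuclear RNA Malat1 (9.67 ± 0.15) completed the non-ribosomal part of the class together with the elongation factor Eef1a1 (9.93 ± 0.12) and the mitochondrial COX2 and ATP6. Of the 30 genes, 13 encode ribosomal proteins, and 27 of the 30 were among the 30 brightest on each of the 4 arrays taken singly.

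The order of neighbours within these 30 genes was weakly defined. Neighbours in a sorted list differ little by construction, so the counts that follow do not describe genes further apart. Of the 29 neighbouring pairs, 3 kept their order on all 4 arrays (AY036118 over Rpl37a, COX2 over Rps29 and Lgals1 over Rps24), and in none did the difference exceed its standard error over rows. Within a gene of the class the median SD over rows was 1.18, whereas the median SD over arrays was 0.074.

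**Figure D2:**
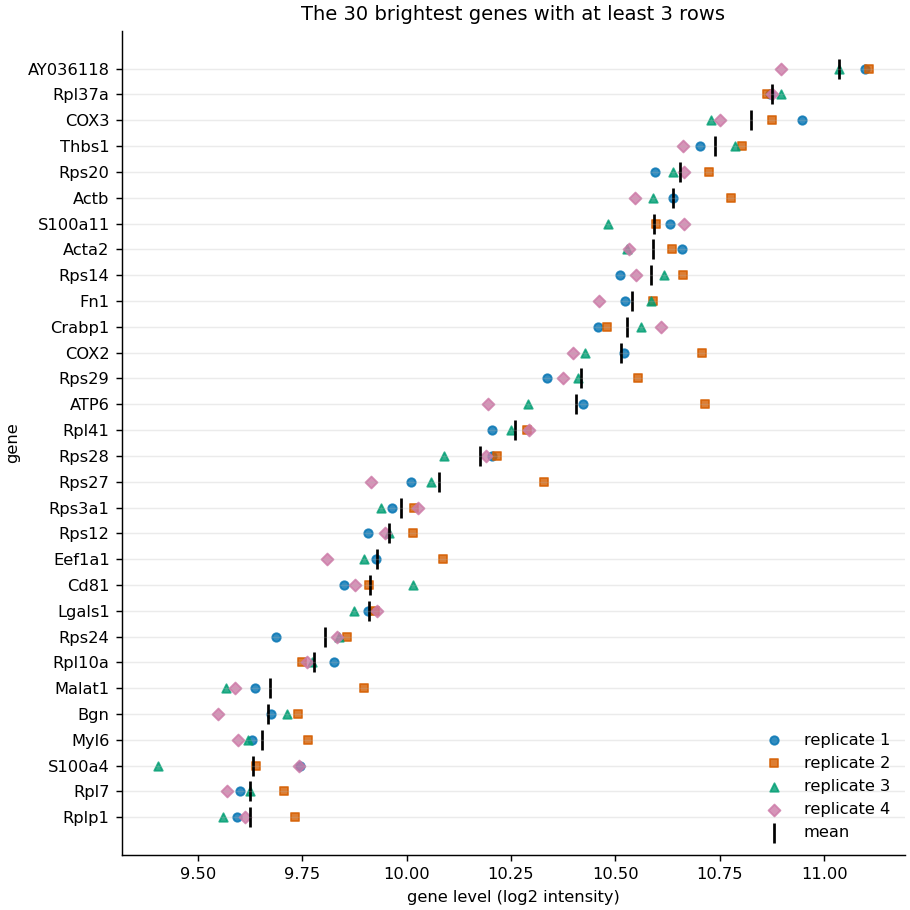
Level of the 30 brightest genes with at least 3 rows (horizontal axis, log2 intensity; vertical axis, genes by rank) on each of the 4 normoxia arrays (coloured symbols) and their mean (black tick). The levels run from 9.62 to 11.04, the arrays of a gene lie close together, and neighbouring genes overlap.

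Functions were described by gene lists, each set against all genes, of which 42.5% were above the receptor level and 5% were by definition in the brightest class. Cytosolic ribosomal proteins were the brightest list, with 68 of 69 genes above the level, 65 of 69 in the brightest 5% and a median level of 8.68. Alone they held 8.05% of the summed linear level. The member not above the level was Rpl36a, with 2.67, 2.98, 3.36 and 2.37 over 3 rows, and Rps19 (3.35 ± 0.11) and Rps13 (3.76 ± 0.14) were also far below the rest. The levels of the list ranged from 2.85 to 11.22, although all of these proteins are parts of the same particle, and the part of row response in that range was not tested. Translation factors gave 26 of 26 above the level and 21 in the brightest 5%, led by Eef1a1, the carrier of aminoacyl-tRNA, at 9.93 ± 0.12 and by Eef2, the factor for translocation, at 9.44 ± 0.061.

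The actin cytoskeleton and contraction list had 32 of 32 genes above the level and 29 in the brightest 5%, with a median of 7.75. Besides the actins it was led by the myosin light chains Myl6 and Myl9 (9.39 ± 0.061), the filament-severing cofilin Cfl1 (8.81 ± 0.057), the tropomyosin Tpm4 (8.56 ± 0.076) and the crosslinker Actn4 (8.13 ± 0.050). The lowest member, Tmsb10, which binds actin monomers, still lay at 5.79 ± 0.089.

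In the matrix, glycoproteins and proteoglycans were above the level in 30 of 30 genes and in the brightest 5% in 16, with a median of 6.42. After thrombospondin-1 and fibronectin came Bgn, the collagen-binding Sparc (9.58 ± 0.060), tenascin C (Tnc, 8.93 ± 0.090), Fbln2 (8.71 ± 0.055) and periostin (Postn, 8.29 ± 0.084). Elastin (Eln), the protein of elastic fibres, was near the other end of the list with 3.77, 3.71, 3.77 and 3.95. Collagens were above the level in 17 of 20 genes and in the brightest 5% in 9. Their brightest member was Col12a1, which decorates fibrils, with 8.18, 8.43, 8.32 and 8.21 over 74 rows. The chains of the main fibril, Col1a1 (8.08, 8.26, 8.34 and 8.07) and Col1a2 (7.77, 8.10, 8.12 and 7.84), followed, and the type III chain Col3a1 lay lower, with 6.14, 6.41, 6.38 and 6.28 on the same arrays. Col14a1, Col8a2 and Col15a1 were not above the level.

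Enzymes and inhibitors that process the matrix were above the level in 22 of 22 genes, 13 of them in the brightest 5%. The protease inhibitors Timp1 (8.91 ± 0.13) and Timp2 (8.52 ± 0.068), the procollagen processing enhancer Pcolce (8.79 ± 0.064), the prolyl hydroxylase subunit P4hb (7.66 ± 0.13) and the crosslinking Loxl1 (6.68 ± 0.12) and Loxl3 (6.48 ± 0.030) were among them. Of the 22, 2 were variable between arrays by the rule given below, against 6.74% of all genes above the level. P4ha2, a catalytic subunit of collagen prolyl hydroxylase, was one of them, with 3.59, 4.27, 4.28 and 4.01. Its SD was 2.01 times the median SD of genes of like level, just past the limit of 2.

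RNA signal was present for genes of both glycolysis and respiration. Glycolysis had 16 of 18 genes above the level and 8 in the brightest 5%, with Gapdh at 9.13, 9.46, 9.14 and 9.09, the pyruvate kinase Pkm at 7.96 ± 0.095 and the lactate dehydrogenase chain Ldha at 7.25 ± 0.088. The hexokinase Hk2, with 2.59, 2.61, 2.80 and 2.62, and the aldolase Aldoc (2.44 ± 0.21) were not above it. Nuclear genes of the respiratory chain and ATP synthase were above the level in 40 of 40 cases and in the brightest 5% in 20, led among genes with several rows by the cytochrome c oxidase subunit Cox6a1 (8.72 ± 0.13) and the ATP synthase chain Atp5b (8.41 ± 0.046). The proteasome (29 of 29 above, 18 brightest), protein folding (29 of 29, 23 brightest) and RNA binding and splicing (31 of 31, 18 brightest) lists were likewise above the level throughout. The cytosolic chaperones Hspa8 (9.35 ± 0.037) and Hsp90ab1 (9.29 ± 0.044) were the brightest genes of folding.

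Lysosome and autophagy genes were above the level in 22 of 22 cases, led by the protease cathepsin D (Ctsd, 8.73 ± 0.081) and the membrane protein Lamp1 (8.18 ± 0.13). Of 23 genes for iron and redox metabolism 21 were above it, including the superoxide dismutase Sod1 (8.12 ± 0.048), the peroxiredoxin Prdx1 (7.96 ± 0.13) and the haem oxygenase Hmox1 (6.99 ± 0.11). The transferrin receptor Tfrc, often used as a reference gene, was not above the level on all arrays, with 2.98, 3.41, 3.29 and 3.01. Cholesterol and fatty acid synthesis had 21 of 21 genes above it, led by the desaturases Scd2 (8.25 ± 0.14) and Scd1 (6.74 ± 0.12).

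Genes of division and genes that restrain it were present together. Of 39 measured genes for the cell cycle and DNA replication 34 were above the level, but only 4 were in the brightest 5%: the cyclins Ccnd1 (7.96, 7.92, 8.08 and 7.92) and Ccnd2 (7.42 ± 0.097), their kinase Cdk4 (7.90 ± 0.079) and the replication clamp Pcna (6.86 ± 0.15). The proliferation marker Mki67 lay at 5.42, 5.62, 5.68 and 5.51, and the mitotic cyclin Ccnb2 at 5.54 ± 0.089. Among p53 targets and CDK inhibitors 16 of 18 genes were above the level and 6 in the brightest 5%. They included the p53 target Ccng1 (8.51 ± 0.13), the CDK inhibitor p21 (Cdkn1a, with 7.42, 7.77, 7.41 and 7.54), the p53 ligase Mdm2 (6.98 ± 0.11) and the CDK4 inhibitor Cdkn2b (6.43 ± 0.10). These are averages over all cells of a dish, and whether the same cells held both groups of RNA was not tested.

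Immediate-early genes, which serum induces within minutes, were above the level in 17 of 20 cases, and the growth regulator Myc was the brightest with 7.13, 7.22, 7.19 and 7.11. Fos lay close to the receptor level, at 3.40, 3.0, 3.48 and 3.21, and Atf3 and Fosb were not above it on all arrays. Of 35 growth factor ligands and receptors 31 were above the level. The matricellular proteins Ccn2 (9.29, 9.30, 9.41 and 9.28) and Ccn1 (8.61, 8.62, 8.74 and 8.58), both targets of the YAP pathway, were the brightest, and the YAP pathway factors Yap1 (5.91 ± 0.20) and Wwtr1 (6.14 ± 0.029) were above the level too. Hgf, Pdgfb and Fgfr3 were not.

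Inflammatory genes were divided. Cytokines and chemokines had 9 of 20 genes above the level, about the share of all genes. The monocyte-attracting chemokines Ccl7 (8.69, 8.53, 8.55 and 8.68) and Ccl2 (7.40, 7.30, 7.28 and 7.35) and the macrophage growth factor Csf1 (6.32 ± 0.11) were in the brightest 5%. The cytokines Il6 (1.67 ± 0.23), Tnf (1.48 ± 0.22) and Il1b (2.04 ± 0.29) lay below the receptor level on every array. The chemokine Cxcl1 was above the level but spread widely, with 5.32, 4.37, 4.76 and 5.35. Interferon-stimulated genes had 4 of 19 above the level and none in the brightest 5%, and Ifit1, Mx1 and Rsad2, which interferon induces, were not above it.

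The labelled cell type was set beside marker genes. The fibroblast list was chosen with earlier results of these data known and shares members such as Fn1 and Postn with the matrix lists. Its counts are therefore no independent check of identity. Of 20 fibroblast markers 19 were above the receptor level and 14 were in the brightest 5%, with a median of 6.40. The intermediate filament vimentin (Vim) had 9.59, 9.59, 9.64 and 9.58, the surface glycoprotein Thy1 7.27, 7.33, 7.36 and 7.32, the receptor Pdgfrb 6.37, 6.63, 6.59 and 6.40 and the mesenchymal homeobox factor Prrx1 6.74, 6.87, 6.87 and 6.65. The related receptor Pdgfra was lower, at 4.77, 5.08, 4.89 and 4.78. The proteoglycans lumican (Lum) at 4.20 ± 0.26 and decorin (Dcn) at 4.09 ± 0.097 were above the level but outside the brightest class. The protease Fap, which marks activated fibroblasts, was the one marker not above the level, with 2.21, 2.58, 2.22 and 2.15 over 31 rows.

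Smooth muscle markers were above the level in 8 of 11 cases. Acta2, the enteric actin Actg2 (8.48, 8.70, 8.52 and 8.57), the actin-binding Tagln (7.59, 7.73, 7.75 and 7.56) and calponin (Cnn1, 7.49, 7.55, 7.50 and 7.50) were in the brightest 5%. The smooth muscle myosin Myh11 lay at 3.75, 3.97, 4.04 and 3.83, and the muscle coactivator Myocd (2.71 ± 0.15) was not above the level. The bright members were thus thin-filament genes, and the defining myosin and coactivator were several log2 units dimmer.

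Most markers of other lineages were not above the receptor level. Over the 10 remaining lists, leaving out Des, which the smooth muscle list also held, 31 of 135 markers (23%) were above the receptor level, against 42.5% of all genes, and 27 of the 31 lay under 4.5. No epithelial marker of 15 and no pluripotency or germ cell marker of 14 was above it. The cadherin Cdh1 had 2.55, 2.10, 2.21 and 2.40, the adhesion molecule Epcam 2.0, 1.86, 1.73 and 1.77, and the pluripotency factor Pou5f1 2.34, 1.45, 1.59 and 1.92. These values were above the median of the receptor genes but below the receptor level on each array. The count of epithelial markers was sensitive to the processing: it was 6 with the 75th percentile of rows, 3 with only genes of at least 3 rows and 1 without replicate 3, and the pluripotency count was 1 under each of the first 2 of these settings. The cells were measured in bulk, so fewer cells of a type and less RNA per cell cannot be told apart.

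For blood cells, the lysosomal Cd68 (3.24 ± 0.040) was the only 1 of 13 markers above the level, and the pan-leucocyte Ptprc (1.49 ± 0.096) and the macrophage marker Adgre1 (1.63 ± 0.13) were not. Of 14 endothelial markers 3 were above it. The VEGF receptor Flt1 had 4.53, 4.99, 4.82 and 4.60, while the endothelial cadherin Cdh5 (2.52 ± 0.19), Pecam1 (1.86 ± 0.11) and Kdr (1.52 ± 0.12) were not above it. In the liver and gut list 3 of 14 were above, with the stem cell receptor Lgr5 at 4.07, 4.42, 4.26 and 4.14 and albumin (Alb) at 1.98, 1.80, 1.92 and 1.86.

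Neuronal and glial markers were above the level in 7 of 16 cases, a share close to that of all genes. Nestin (Nes), an intermediate filament of neural and other progenitors, had 4.97, 5.07, 5.22 and 5.24, and the tubulin Tubb3 4.60, 4.03, 4.38 and 4.26. The glial factors Olig2 (3.98, 3.12, 3.18 and 3.64) and Sox10 (3.18, 2.90, 2.97 and 3.39) lay just above the level, and Gfap, Snap25 and Dcx were not above it.

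Skeletal and cardiac muscle had 6 of 17 markers above the level (35.3%, against 42.5% of all genes). Skeletal actin (Acta1) was the one in the brightest 5%, with 6.86, 7.15, 6.99 and 6.89, and its probes may also read the other actins. Myod1 (3.29, 2.71, 2.97 and 3.13) was just above the level, and the myosin heavy chains Myh3, Myh6 and Myh7 and titin (Ttn, 1.69 ± 0.10 over 345 rows) were not. Cartilage had 4 of 12, among them Col2a1 at 4.34, 3.94, 4.12 and 4.32 and its regulator Sox9 at 4.18, 3.73, 3.98 and 4.17. Fat cells had 5 of 12 (41.7%, about the share of all genes), without the adipocyte factors Pparg (2.51 ± 0.19), Adipoq and Fabp4. Bone had 3 of 9: Runx2 (4.19 ± 0.082), Sp7 (3.21 ± 0.21) and osteopontin (Spp1). Osteopontin, which bone and many stressed or migrating cells secrete, had 7.58, 7.56, 7.56 and 7.56 (7.57 ± 0.0092, SD, n = 4, over 13 rows) and was the brightest marker of the 10 lists.

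**Figure D3:**
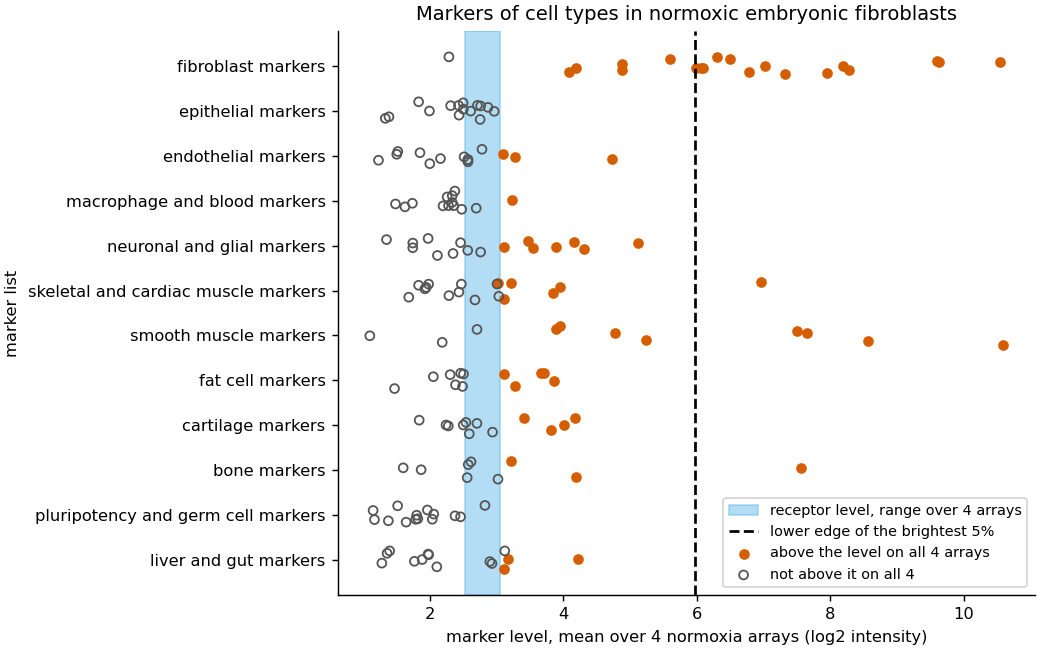
Levels of lineage markers (horizontal axis, mean log2 intensity over the 4 normoxia arrays), 1 point per gene, by marker list (vertical axis, with points spread vertically for legibility). Filled points were above the receptor level on all 4 arrays and open points were not; fibroblast markers lie mostly to the right of the dashed line at 5.97, whereas the epithelial and the pluripotency lists hold open points only.

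Transcription factors of the mesenchyme were above the level in 23 of 29 cases but in the brightest 5% in 3. Slug (Snai2), which represses epithelial genes, was the brightest with 7.20, 7.36, 7.27 and 7.30, followed by Prrx1 and Wwtr1. Of 19 limb and face patterning factors 10 were above the level (52.6%), a share not far from the 42.5% of all genes. The homeobox gene En1 (4.16, 3.95, 4.11 and 4.30) and the hindlimb factor Tbx4 (3.83, 3.88, 3.84 and 4.01) were the brightest. The forelimb factor Tbx5 (2.94, 3.24, 2.91 and 2.71) and the hindlimb factor Pitx1 (3.49, 3.07, 2.52 and 3.22) were not above it on all arrays. All these levels were below the brightest class.

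HOX genes record position along the body axis, the genes at the 3′ end of each cluster being used anteriorly and those at the 5′ end posteriorly and in distal limbs. Of 37 measured HOX genes 25 were above the receptor level and none was in the brightest 5%. Hoxc6 was the brightest, with 5.29, 5.80, 5.72 and 5.43. The distal limb gene Hoxd13 (4.93, 5.35, 5.15 and 5.08) and Hoxb3 (5.11, 5.27, 4.99 and 5.07) followed and overlapped with each other. By cluster, 6 of 10 Hoxa, 9 of 10 Hoxb, 5 of 9 Hoxc and 5 of 8 Hoxd genes were above the level. By position, 20 of 25 genes of groups 1 to 9 were above it. Of groups 10 to 13, 5 of 12 genes were, a share close to the 42.5% of all genes. The 5 were Hoxd13, Hoxd10 (4.06 ± 0.21), Hoxa11 (3.91 ± 0.039), Hoxd11 (3.70 ± 0.19) and Hoxc10 (3.45 ± 0.17), and the paralogues of Hoxd13, namely Hoxa13 (2.17 ± 0.32, 2 rows), Hoxb13 (2.47 ± 0.32) and Hoxc13 (2.46 ± 0.32), were not. Genes of anterior, posterior and distal limb groups were above the level on the same arrays, but several of these calls lay near it. Hoxd9 had 3.07 on replicate 1, where the level was 3.06, and Hoxb1 had 2.59 on replicate 2, where it was 2.53. Whether the same cells held these RNAs was not tested.

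**Figure D4:**
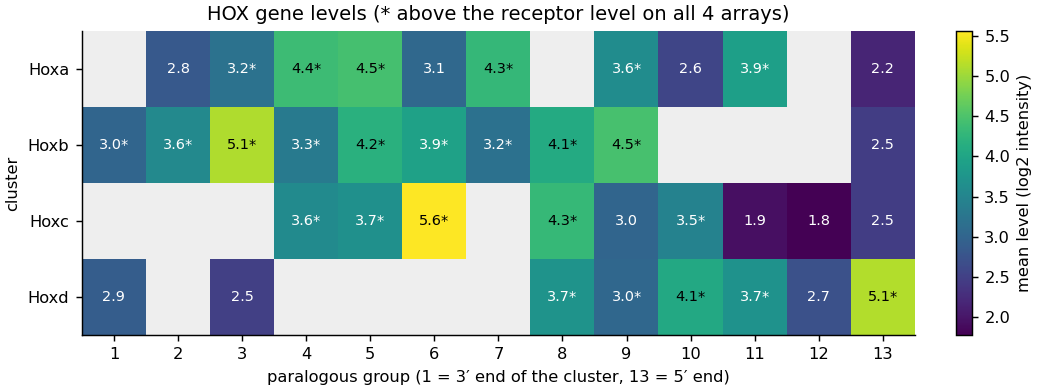
Mean level of each measured HOX gene over the 4 normoxia arrays (colour and printed value, log2 intensity) by cluster (vertical axis) and paralogous group (horizontal axis, from the 3′ to the 5′ end of the cluster). An asterisk marks genes above the receptor level on all 4 arrays and light grey cells hold no value; the Hoxb cluster is above the level at all positions but Hoxb13, and Hoxd13 stands apart from the other group 13 genes.

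Imprinted genes, which are read from 1 parental copy and are strongly used in embryonic tissue, were above the level in 16 of 19 cases and in the brightest 5% in 6. The non-coding Meg3 had 7.44, 7.53, 7.50 and 7.52, the growth factor Igf2 6.24, 6.35, 6.34 and 6.40 and the neighbouring non-coding H19 6.14, 6.18, 6.44 and 6.31. The receptor that clears IGF2, Igf2r (6.75 ± 0.087), and the adaptor Grb10 (6.68 ± 0.14) were of like level. Snrpn, Magel2 and Phlda2 were not above the level.

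Of 9 measured sex-linked genes 5 were above the level (55.6%, against 42.5% of all genes), 1 of them Y-linked. Xist, the RNA that coats the inactive X chromosome of female cells, had 6.32, 6.78, 6.64 and 6.61. The Y-linked translation factor Eif2s3y had 4.26, 4.98, 4.56 and 4.16 over 17 rows and was above the level on every array, whereas the Y-linked Kdm5d (2.17, 2.64, 2.32 and 2.31) and Uty (1.41, 1.75, 1.56 and 1.30) were not. The X-linked copy Eif2s3x was brighter, at 7.04, 7.21, 7.06 and 6.93, and may share signal with Eif2s3y. The part of this sharing in the Eif2s3y value was not tested.

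Of the reference genes, 11 of 12 measured were above the level, and they covered a wide range. Actb (10.64 ± 0.10), Ppia (9.22 ± 0.10), Gapdh (9.20 ± 0.17) and B2m (9.17 ± 0.079) were in the brightest 1%, as were Rplp0 (8.63 ± 0.14) and Ywhaz (8.13 ± 0.067). Pgk1 (7.22 ± 0.10) and Hprt (6.04 ± 0.19) were in the brightest 5%, and Sdha (5.15 ± 0.10), Gusb (4.02 ± 0.13) and Tbp (3.32 ± 0.068) were dimmer. Ywhaz and Tbp had the narrowest spread of the 12, and Tfrc, which was not above the level, the widest, with an SD of 0.21.

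The replicates resembled each other closely at the gene level. Across genes, Pearson's r between pairs of arrays was 0.973 to 0.985 (6 pairs, 21656 genes), and across all single rows it was 0.923 to 0.944. Genes are not independent replicates, and both values rest on the shared differences between genes. The pair of replicates 1 and 2 had the lowest r and the pair of replicates 2 and 3 the highest. The median SD of a gene over the 4 arrays was 0.17, and 0.16 among genes above the receptor level, equal to a ratio of 1.12. When those genes were divided into 20 bins by level, it was 0.19 in the dimmest bin and 0.11 in the brightest. The median SD over the rows of 1 gene was 1.30, several times the spread between arrays.

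A gene was called variable where its SD was at least 2 times the median SD of genes of like level. Of 9194 genes above the level, 620 (6.74%) were variable. The share depended on the number of rows: it was 52.1% among genes read by 1 or 2 rows, 8.84% with 6 to 10 rows and 1.35% with over 20. By list, there were 4 variable genes among 40 of the respiratory chain, 4 of 31 in RNA binding and splicing, 5 of 68 ribosomal proteins, and none among the actin, folding, fibroblast or smooth muscle lists. Hnrnpa1, a splicing regulator, was variable with 6.57, 7.16, 6.60 and 6.34, and Tgfb3, a growth factor of the TGF-beta family, with 6.16, 6.77, 6.60 and 6.22.

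Among genes with at least 3 rows, Nanos3, known for its role in germ cells, spread most for its level, with 4.52, 3.10, 4.97 and 4.54 over 3 rows. The keratin-associated Krtap5-3 had 4.27, 2.53, 3.10 and 3.22, and the hepcidin gene Hamp2 4.51, 3.89, 4.09 and 5.31. In all 3, replicate 2 was the lowest. Among all 620 variable genes it was the lowest array for 29.7% and the highest for 50.8%. In the opposite direction, the mitochondrial proteins Uqcrh, a small subunit of complex III (6.87, 7.51, 7.42 and 6.71), and Higd2a, an assembly factor of the respiratory chain (5.83, 6.92, 6.79 and 6.68), and the ribosomal-like Rps27l (5.95, 7.0, 6.09 and 6.0) were highest on replicate 2. For its level the narrowest gene was Sgsh, a lysosomal sulphamidase, with 3.72, 3.71, 3.72 and 3.71 (SD 0.0052), followed by the centrosomal Nin (3.41 ± 0.0069) and the methyltransferase Kmt5c (3.70 ± 0.0097).

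With only 4 arrays, centred on the gene means, few components exist, so the first always holds a large share of the differences. The first component of the deviations from the gene means, over genes above the level, carried 64.1% of their variance and the second 18.7%. The first placed replicate 2 at 18.6, replicate 3 at 4.23, replicate 4 at -9.13 and replicate 1 at -13.7. Replicate 2 was the highest array for 51.1% of the genes above the level and replicate 1 the lowest for 44.3%. At the dim end the order was turned. Of 6089 genes with a mean under 2, 39% were highest on replicate 1 and 43.9% lowest on replicate 2. After quantile normalization, replicate 2 was still the highest array for 45.1% of the genes above the level. The spread of values moved with this order: the interquartile range of rows was 2.77 on replicate 1 and 2.90 on replicate 2. Batch and scan dates were not given in the sources used here, and their part in this order was not tested.

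Set against the 51.1% of all genes above the level that were highest on replicate 2, 30 of 31 genes of RNA binding and splicing and 5 of 5 sex-linked genes were, with median differences of 0.25 and 0.30 from the mean of the other 3 arrays. The same held for 25 of 29 folding genes (0.18) and 28 of 40 respiratory chain genes (0.19), against a median difference of 0.13 over all genes above the level. Of 17 immediate-early genes 7, and of 16 imprinted genes 7, were highest on that array. None of the 10 patterning factors above the level was (median difference -0.22). This was not particular to them: 0 of 4 cartilage markers (-0.35) and 4 of 34 receptor genes above the level (-0.24) were highest there. Of 25 HOX genes above the level 12 were (0.15). After quantile normalization 28 of the RNA binding and splicing genes and 25 of the respiratory chain genes were highest on replicate 2. The share of all genes above the level was then 45.1%.

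**Figure D5:**
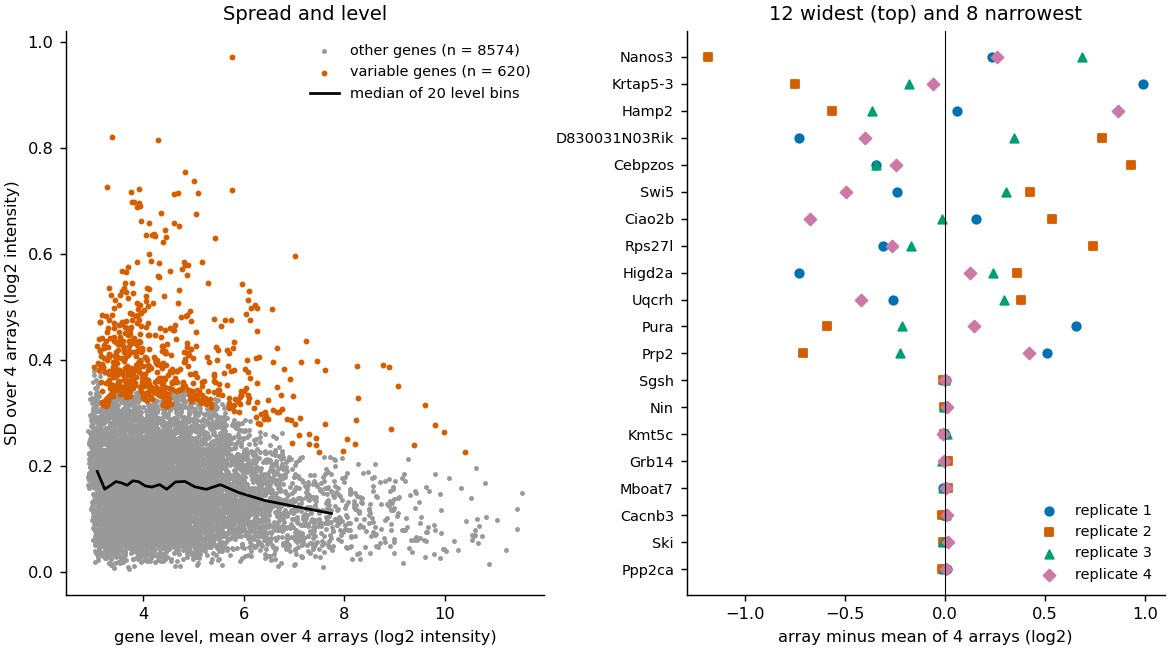
Left, SD over the 4 normoxia arrays against the mean level (both log2 intensity) for the 9194 genes above the receptor level, with 620 variable genes in orange and the median SD of 20 level bins as a line. Right, deviation of each array from the mean of the 4 (log2) for the 12 genes with the widest and the 8 with the narrowest spread for their level. Replicate 2 is the highest or the lowest array in each of the 12 wide genes. Among all 620 variable genes it was the highest array for 50.8% and the lowest for 29.7%.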

How the data were processed

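The 4 normoxia columns of the deposited table were used, matched to the labels by sample name; the other 4 columns hold hypoxia arrays and were not used. The values are linear signal intensity per probe set, deposited by the authors; the background correction, normalization and summarization behind them were not given in the sources used here. They ran from 0.794 to 8358, with a median log2 intensity of 2.38 to 2.44 on each array, and were used on the log2 scale without a pseudocount or further normalization. Precision is limited by how many arrays there are.

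Of 641130 rows, 307991 named 1 gene, 7047 several and 326092 none in the platform annotation; only the first were used. Of 21842 annotation symbols, 17794 were found in RefSeq (GRCm38.p6), 3985 were replaced by the symbol of which they are a synonym, and 63 stayed unmatched. A gene's level was the mean log2 intensity of its rows on an array. The receptor level was the 95th percentile of odorant and pheromone receptor genes on each array. Variable genes had an SD of at least 2 times the median of their level bin (20 bins).

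The members and lists were chosen with earlier results of these data known. The 27 function and 12 lineage lists held 914 entries, of which 881 had a level. The ribosomal protein and HOX lists were trimmed by name to drop pseudogenes, kinases and antisense genes. Named genes were the 30 brightest with at least 3 rows, up to 5 brightest members of each list, the dimmest member and defining markers of lineage lists, the 12 widest and 8 narrowest spreads, and all reference, sex-linked and fibroblast genes; the mitochondrial genes, further list members, promoter examples and genes outside this rule were named after their values were seen. With 1 group there was no comparison between conditions and no test was run. Alternatives were the rows kept, their summary, the normalization, the receptor percentile and leaving out each array. The steps were tested on simulated data. Python 3.11.15, numpy 2.4.6, pandas 2.3.3 and matplotlib 3.10.9 were used.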

Additional observations from a re-analysis of the deposited data

Results flagged for a closer look

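Of 259 named genes, 17 (6.56%) had 1 array whose gap to its nearest neighbour, as a share of the range over the 4 arrays, was past Dixon's 95% critical value; chance alone flags about 5% of such groups. In 12 of the 17 the array apart was replicate 2, the array that also stood at the end of the first component. Among all genes above the level, replicate 2 was the highest array for 51.1% and the lowest for 18.7%. The 12 of 17 are therefore not read as a trait of the flagged genes.

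Replicate 2 was the highest array for Cox6c (9.33, others 8.78 to 8.82), Gapdh (9.46, others 9.09 to 9.14), Hsp90b1 (9.21, others 9.0), Timp1 (9.11, others 8.82 to 8.86), Ndufa4 (8.43, others 8.12 to 8.15) and Postn (8.41, others 8.23 to 8.25). It was also the highest for Cnn1 (7.55, others 7.49 to 7.50), Rps27l (7.0, others 5.95 to 6.09), Cebpzos (5.33, others 4.06 to 4.15), Pnpla2 (4.01, others 3.81 to 3.84) and Fap (2.58, others 2.15 to 2.22). Csf1r was lowest on it, at 2.09 with the others at 2.47 to 2.48.

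Replicate 1 stood apart for Rps24 (9.69, others 9.83 to 9.86) and Ddr2 (5.81, others 6.03 to 6.06) on the low side and for Spp1 (7.58, others 7.56) on the high side, where the whole range was very narrow. Replicate 3 stood apart for Ccn2 (9.41, others 9.28 to 9.30) and Plin4 (3.0, others 3.14 to 3.16).

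Signal was also present in rows outside the gene levels. Of 326092 rows that name no gene, 47637 (14.6%) exceeded the 95th percentile of the 3515 rows of receptor genes on all 4 arrays, against 34.6% of the rows that name 1 gene and 2.67% of the receptor rows themselves.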

How the results depend on the processing

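No paired analysis was possible because 1 group was described and no test was run. The number of genes above the receptor level was 9194. It was 1621 when only rows at or above the table median were kept, a setting that also removes the dim rows of the receptor genes that set the level, and 4912 with the 99th percentile of the receptor genes. It lay between 8522 and 11140 under the other settings and between 9231 and 9678 without 1 array. A gene had to pass on every array, so leaving 1 out could only keep or raise this count and the marker count below. Markers of other cell types above the level numbered 31, fell to 2 with only rows at or above the table median and to 9 with the 99th percentile (a setting added after the data were seen), and were 31 to 34 without 1 array. The median SD between arrays (0.17) was 0.22 with only rows at or above the table median, 0.25 with the median or the 75th percentile of rows, and 0.14 to 0.18 without 1 array. The ribosomal count in the brightest 5% was 55 to 65 and the fibroblast marker count 11 to 14 over all settings. Levels of single named genes moved by more than their SD in 248 of 259 genes with the 75th percentile of rows. The count was 174 with the median and 125 of 257 with only rows at or above the table median. Under quantile normalization no named gene moved by more than its SD. Without 1 array none could, because leaving out 1 of so few arrays cannot shift a mean by more than the SD. Leaving out an array therefore does not test the levels in this respect. Of the 30 brightest genes, 19 to 30 were shared under another summary, filter or scale. Relative ranks gave no SD or level in log2 units. No depth exists for arrays; dim genes had only a bound near the receptor level.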

Other observations

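Long non-coding RNAs and histone genes add to the functions above. Among non-coding genes with at least 3 rows, the next brightest after AY036118, Malat1 and Meg3 was Gas5, a host of small nucleolar RNAs, with 7.32, 7.67, 7.46 and 7.31. Rian, which lies in the same imprinted domain as Meg3, had 7.17, 7.49, 7.29 and 7.23, and the paraspeckle RNA Neat1 had 6.37, 6.51, 6.48 and 6.40. The 3 RNAs lay in the brightest 5% on the mean of the arrays. Of 26 measured genes of the replication-dependent histone clusters, 12 were above the receptor level (46.2%, against 42.5% of all genes). Of the 26, 2 lay in the brightest 5%, and most are read by few rows. Of those 12, 3 were highest on replicate 2, against 51.1% of all genes above the level. The linker histones H1f5 (4.36, 5.67, 5.50 and 5.12) and H1f2 (5.18, 5.93, 5.69 and 4.88) were among the 3, whereas the brightest member, H2bc14, was lowest there (7.66, 7.27, 7.42 and 7.46).

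Pseudogenes gave 58 of the 1083 brightest genes. Of these, 16 carry a ribosomal protein name and 46 are read by 1 or 2 rows. Whether their signal came from the parent genes was not tested.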
